A study of Mus musculus with 15 samples.

Results

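The chemokines described here are 10 genes taken by name, under a rule that sets no threshold on their values: the CC chemokines Ccl2, Ccl5, Ccl7 and Ccl11, and the CXC chemokines Cxcl1, Cxcl2, Cxcl5, Cxcl12, Cxcl14 and Cxcl15. They were represented by 14 probes, among 27647 named genes on the array, of which 20308 were tested. Expression was measured in whole uteri of CD-1 mice, an outbred stock; the mice of every group, vehicle included, had been ovariectomized, which removes their ovarian oestrogen. The 5 groups of 3 one-colour arrays were uteri taken 24 h after 250 ng of E2 in 100 µl of saline (E2 24 h), 24 h after 250 ng of E3 in 100 µl of saline (E3 24 h), 2 h after the same dose of E2 (E2 2 h), 2 h after the same dose of E3 (E3 2 h), and after 100 µl of saline alone (vehicle). E2 and E3 are read by their usual meaning, estradiol and estriol, which differ by 1 more hydroxyl on ring D of estriol. Neither the age of the mice nor the time at which vehicle uteri were taken is given in the sources used here. Whether the 3 arrays of a group stand for separate animals is not stated in the labels, so the p-values reflect the spread between arrays, possibly technical.

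Chemokines are small secreted proteins that direct the migration of leukocytes through G protein-coupled receptors. In the rodent uterus an oestrogen pulse is known to bring fluid and leukocytes, eosinophils and macrophages among them, into the tissue. CXC chemokines that carry the ELR motif attract neutrophils through Cxcr2, whereas Ccl2, Ccl7 and Ccl12 attract monocytes through Ccr2, Ccl11 attracts eosinophils through Ccr3, and Cxcl12 signals through Cxcr4 and is taken up by the atypical receptor Ackr3.

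A level is the log2 of a probe's processed signal minus the 75th percentile of the log2 signal of its array, so 0 marks the signal at that percentile; levels are compared between groups for 1 probe at a time and never between probes. A change is a difference of mean levels from a limma fit to all 15 arrays, given with its standard error (SE) or 95% interval, and calls were made where the adjusted p over the 20308 genes was under 0.05. Over the arrays, the signal at that percentile was 1053 to 1854, and 63.1% to 80% of probes were well above background; the number of arrays limits the precision. All 9 epithelial, 10 stromal and 8 smooth muscle markers were well above background on all 15 arrays. All 3 vehicle arrays shared a slide that held no other group, so slide and vehicle cannot be told apart. No slide held both E2 24 h and E3 24 h, both E2 2 h and E3 2 h, or both E3 groups. Those comparisons too are between arrays of different slides. The fit with slide as a random block is given for the main results. Scan day 1 held arrays of all 5 groups and gives the within-day values. It held all 3 vehicle arrays and lacked an array of each treated group, so these values rest on fewer arrays. Vehicle was alone on its slide there too, so a within-day value does not separate slide from vehicle. Because tissue was measured in bulk, fewer cells of a type and less RNA per cell cannot be told apart. The 9 members other than Cxcl2 were well above background on all 15 arrays and were tested; none was saturated. Cxcl2 was well above background on 6 arrays, on all 3 of no group, and was not tested.

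At 2 h, 3 of the 9 chemokines tested were higher. Ccl2, Ccl7 and Cxcl1 were called higher with each oestrogen, 3.73-fold to 4.17-fold with E2 and 5.5-fold to 8.06-fold with E3, and none of the 9 members tested was called lower. The background was high: 38.7% of all genes tested were called in E2 2 h against vehicle (15.5% higher and 23.1% lower) and 40.2% in E3 2 h against vehicle (16.6% higher and 23.6% lower), so 3 of 9 members called in either direction is near the background. The arrays of 4 of 9 members did not overlap vehicle in each 2 h comparison, beside 55.5% of all genes with E2 and 55.6% with E3. These were Ccl2, Ccl7 and Cxcl1 with both oestrogens, Cxcl15 in E2 2 h, where the nearest arrays round to the same level, and Ccl5 in E3 2 h. Both comparisons use the same vehicle arrays. With the array median as the scale, 4208 genes were called higher and 3115 lower in E2 2 h, beside 3157 and 4695 at the 75th percentile. In E3 2 h the array median gave 4871 higher and 2928 lower, beside 3370 and 4799. The 3 members were called higher on either scale. The median change of the 9 members was 0.01 with E2 and 0.29 with E3, beside -0.14 and -0.16 for all genes tested. In the same comparisons 0 of 10 stroma markers were called higher and 5 lower with E2, and 9 lower with E3 (4 lower with the array median as the scale). Of 5 red blood cell markers 3 were tested, and 2 were called higher with E2 and 1 with E3; their summed level, as a multiple of the 75th percentile, ran from 34 to 41.4 in E2 2 h, 21.7 to 30.8 in E3 2 h and 11.6 to 19.2 in vehicle. The part of these markers in the chemokine values was not tested.

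At 24 h the picture was different. Ccl7 was called higher in E2 24 h than in vehicle, 3.34-fold, and Cxcl12 was called lower in E2 24 h and in E3 24 h than in vehicle; no other member was called against vehicle at that time. That is 1 member higher and 1 lower of 9 with E2, where 43.4% of all genes were called (21.1% higher and 22.3% lower), and 1 of 9 with E3, where 20.4% were called (9.7% higher and 10.7% lower). Arrays did not overlap vehicle for 4 of 9 members in E2 24 h and 2 of 9 in E3 24 h, beside 56.1% and 36.1% of all genes. Ccl7 was also the 1 member called between E2 and E3, at 24 h (15.7% of all genes were called, 8.95% higher and 6.77% lower), and the 1 member whose difference between E2 and E3 was called to change with time (6.22% of all genes, 3.85% in the direction of Ccl7). Between 24 h and 2 h, 1 member was called higher and 4 lower with E2, beside 30.6% of all genes higher and 21.7% lower, and 0 were called higher and 4 lower with E3, beside 29.9% of all genes higher and 19.8% lower. Groups did not overlap between the times for 6 of 9 members with E2 and 4 of 9 with E3, beside 62.2% and 54.2% of all genes.

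**Figure D1:**
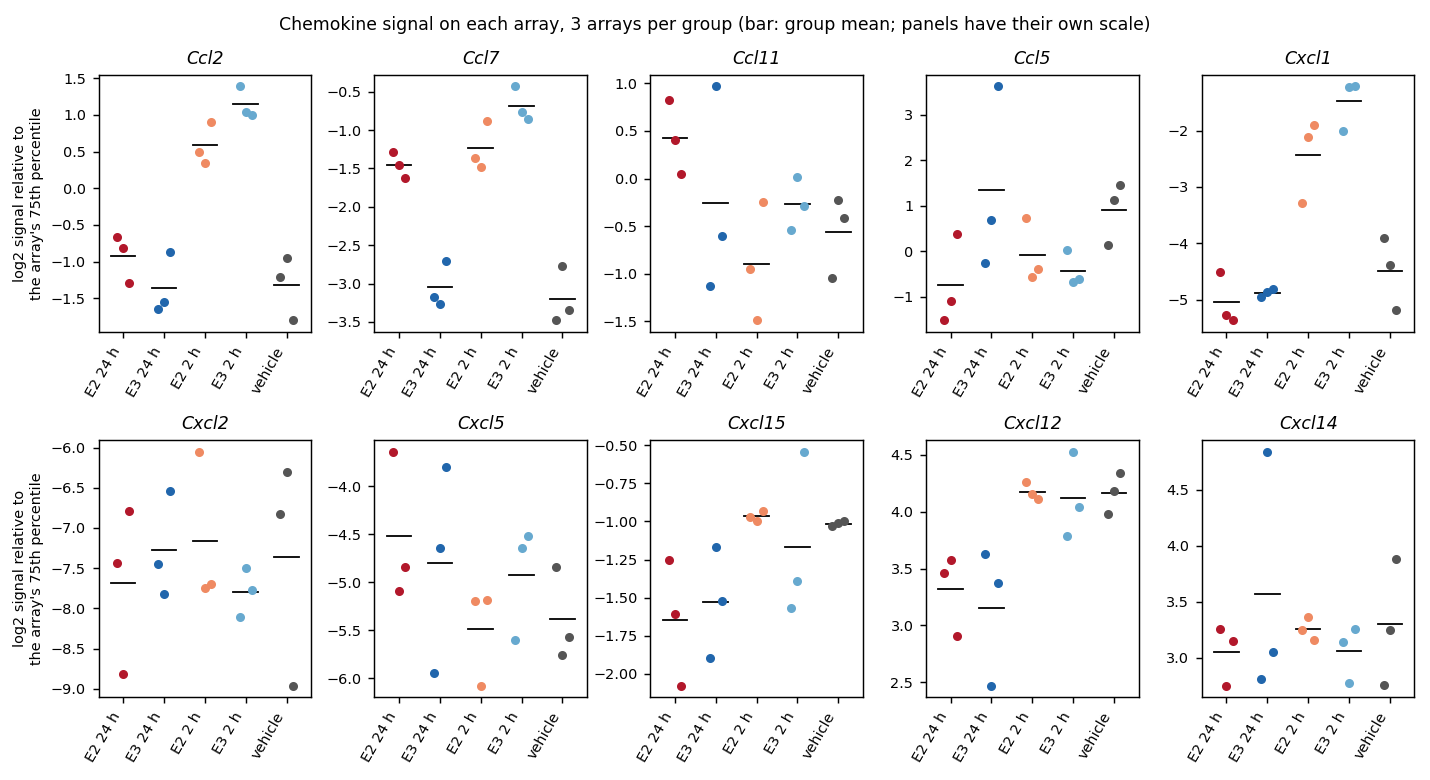
Level of each chemokine (log2 signal relative to the array's 75th percentile, vertical axis with its own scale per panel) on each of 15 arrays; dots are arrays, bars are group means, and groups run from E2 24 h to vehicle. Ccl2, Ccl7 and Cxcl1 are high in both 2 h groups, Ccl7 also in E2 24 h, and Cxcl12 is low in both 24 h groups. Cxcl2 was well above background on 6 arrays only.

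Ccl2 is a monocyte attractant. Its probe lies at chr11:82118723-82118782 on the + strand of mm7, the build named in the file headers, and is spotted 10 times on each array, with an SD between spots of 0.029 to 0.08 on the log2 scale. The level of Ccl2 was -0.67, -0.82 and -1.29 in E2 24 h and -1.64, -1.55 and -0.87 in E3 24 h. Ccl2 was at 0.50, 0.35 and 0.90 in E2 2 h and 1.39, 1.04 and 1.00 in E3 2 h, against -1.21, -0.95 and -1.80 in vehicle. Every 2 h array was thus above every 24 h array and every vehicle array, E3 2 h lay above E2 2 h without overlap, and the 24 h groups overlapped vehicle. Ccl2 rose by 1.90 ± 0.27 (SE) in E2 2 h (adjusted p = 1.5e-04, limma) and by 2.46 ± 0.27 in E3 2 h (adjusted p = 2.1e-05, limma). Within scan day 1 the changes in Ccl2 were 1.94 in E2 2 h and 2.34 in E3 2 h, and with slide as a random block they were 1.90 and 2.49; each was called. At 24 h the change in Ccl2 was 0.39 with E2 (95% interval -0.19 to 0.97) and -0.03 with E3 (-0.61 to 0.54), neither called.

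Between the times, Ccl2 was lower at 24 h than at 2 h by a change of -1.51 ± 0.27 with E2 (adjusted p = 4.7e-04, limma) and of -2.50 ± 0.27 with E3 (adjusted p = 1.7e-05, limma). On the 1 slide that held both E2 groups, the 24 h array was at -0.82 and the 2 h arrays averaged 0.62, a difference of -1.44 with no test. Over all genes, 52.3% were called in either direction between 24 h and 2 h with E2 and 49.7% with E3. The fall of Ccl2 with E3 was not called with slide as a fixed term over the treated arrays, where its value was -2.82 (adjusted p = 0.1), a fit in which 134 genes in all were called for that comparison.

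Ccl7, a second monocyte attractant, lies next to Ccl2 in the RefSeq gene order of chromosome 11 and was measured by a pair of probes, at chr11:82128729-82128788 and at chr11:82128577-82128636 on the + strand of mm7. The sequence of the second probe is given because the difference between the oestrogens was called on each probe alone; no exon annotation was used here.
Ccl7 second probe: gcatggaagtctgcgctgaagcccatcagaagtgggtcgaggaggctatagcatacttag
On the first probe, the brighter of the pair, the level of Ccl7 was -1.29, -1.46 and -1.62 in E2 24 h and -3.17, -3.26 and -2.71 in E3 24 h. Ccl7 was at -1.36, -1.48 and -0.88 in E2 2 h and -0.43, -0.76 and -0.86 in E3 2 h, against -3.48, -2.77 and -3.35 in vehicle. Arrays of E3 24 h overlapped those of vehicle, and every array of E2 24 h and of both 2 h groups lay above all of them. Ccl7 rose by 1.96 ± 0.22 in E2 2 h (adjusted p = 3.2e-05, limma), by 2.52 ± 0.22 in E3 2 h (adjusted p = 4.8e-06, limma) and by 1.74 ± 0.22 in E2 24 h (adjusted p = 1.1e-04, limma). In E3 24 h its change against vehicle was 0.16 (95% interval -0.33 to 0.64).

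At 24 h Ccl7 averaged -1.46 ± 0.16 in E2 and -3.05 ± 0.29 in E3 (SD, n = 3 each), a difference of 1.59 ± 0.22 (SE) or 3.01-fold, with all 3 E2 arrays above all 3 E3 arrays (adjusted p = 8.9e-04, limma; over all genes, 28.6% did not overlap in this comparison). The second probe of Ccl7 averaged -2.43 ± 0.14 in E2 and -3.63 ± 0.34 in E3 (SD, n = 3 each), a difference of 1.20 ± 0.24 (SE) (adjusted p = 0.0059, limma). With scan day as a term, and within scan day 1, the difference was 1.40 and called, and with slide as a random block it was 1.59 and called; with slide as a fixed term it was 1.62 with an adjusted p of 0.2, in a fit that called 0 of all genes. Between 24 h and 2 h Ccl7 changed by -0.22 (95% interval -0.70 to 0.27) with E2 and by -2.36 ± 0.22 (adjusted p = 7.0e-06, limma) with E3. On the second probe the change was -0.56 with E2 (95% interval -1.08 to -0.04, adjusted p = 0.065, limma), not called, and -2.08 with E3. On the first probe the E2 minus E3 difference of Ccl7 was thus 2.14 ± 0.32 larger at 24 h than at 2 h (adjusted p = 0.0041, limma). It was 1.52 larger on the second probe (adjusted p = 0.024, limma). The call on the first probe did not hold with scan day as a term, where Ccl7 gave 1.76 (adjusted p = 0.056, limma), within scan day 1 (1.76, adjusted p = 0.058) or with slide as a fixed term (2.16, adjusted p = 0.41).

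Markers of macrophages and monocytes gave other counts than Ccl7. Of 12 such markers, 11 were tested. Against vehicle 1 was called higher in E2 24 h (21.1% of all genes) and 5 in E3 24 h (9.7%). Between the oestrogens 5 were called lower in E2 24 h than in E3 24 h (6.77% of all genes). At 2 h, 0 markers were called higher with either oestrogen (15.5% of all genes with E2, 16.6% with E3). With E2 1 was called lower (23.1%). The count in E3 24 h depended on the setting, from 0 to 10 over 27 alternatives: it was 2 within scan day 1, 9 without E3 24 h replicate 1, 2 without E3 24 h replicate 2, 3 without E3 24 h replicate 3, and 2, 3 and 3 without vehicle replicate 1, 2 and 3. The E2 24 h against E3 24 h count was 2, 2 and 3 without E2 24 h replicate 1, 2 and 3, and 8, 3 and 2 without E3 24 h replicate 1, 2 and 3. Between the times, 11 markers were called higher at 24 h than at 2 h with E3 (29.9% of all genes) and 4 with E2 (30.6%). The E3 time count ran from 0 to 11 over 28 alternatives. Adgre1, which encodes the macrophage antigen F4/80, was at 0.82 to 1.13 in E2 24 h and 2.23 to 3.35 in E3 24 h, a difference of -1.83 (adjusted p = 0.002, limma). The summed level of the 11 markers, as a multiple of the 75th percentile, ran from 96 to 111 in E2 24 h, 153 to 369 in E3 24 h, 66.4 to 160 in E2 2 h, 79.6 to 127 in E3 2 h and 116 to 171 in vehicle. Ccr2, the receptor of Ccl2 and Ccl7 and a member of this marker list, was well above background on all 15 arrays. The part of these markers in the Ccl2 and Ccl7 values was not tested.

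**Figure D2:**
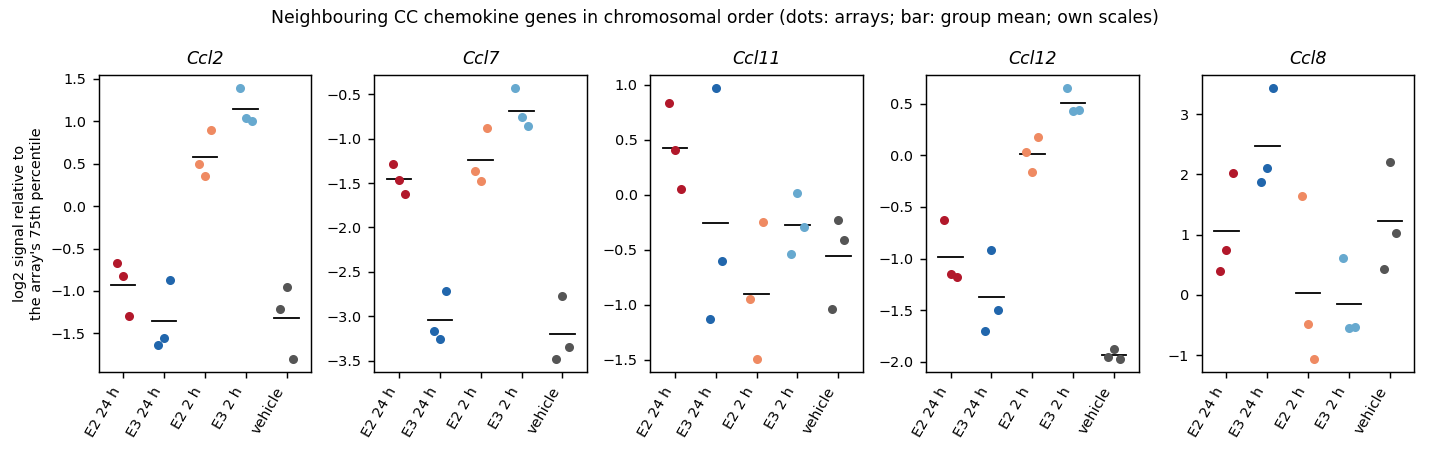
Level of 5 neighbouring CC chemokine genes in the order of the RefSeq annotation (log2 signal relative to the array's 75th percentile, own scale per panel); dots are arrays and bars are group means. Ccl2, Ccl7 and Ccl12 are raised in both 2 h groups, and Ccl11 and Ccl8 between and beside them are not separated from vehicle at 2 h.

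In the RefSeq gene order these genes form a row on chromosome 11: Ccl2, Ccl7, Ccl11, Ccl12, Ccl8 and Ccl1. Ccl12, a ligand of Ccr2 in the mouse, was at 0.03, -0.16 and 0.18 in E2 2 h, 0.65, 0.43 and 0.44 in E3 2 h and -1.95, -1.87 and -1.97 in vehicle. It rose by 1.95 ± 0.20 in E2 2 h (adjusted p = 1.3e-05, limma) and 2.44 ± 0.20 in E3 2 h (adjusted p = 2.5e-06, limma), and by 0.94 ± 0.20 in E2 24 h (adjusted p = 0.0024, limma). In E3 24 h its change was 0.56 ± 0.20 (adjusted p = 0.062, limma), not called, and it was called in 4 of 27 alternatives. The E2 minus E3 difference of Ccl12 at 24 h was 0.38 ± 0.20 (adjusted p = 0.22, limma), not called. Ccl11 lies between Ccl7 and Ccl12, and its changes at 2 h were -0.34 (95% interval -1.36 to 0.69) with E2 and 0.29 (-0.74 to 1.32) with E3. Ccl8, shown for its place in the row and not for its values, changed by -1.19 ± 0.72 in E2 2 h and -1.37 ± 0.72 in E3 2 h, neither called. Ccl1 did not pass the filter on dim probes. The longest run of bases that the Ccl2 or the Ccl7 probes shared with a probe of any other chemokine was 8. Probes were compared only with probes, so a match elsewhere in a transcript was not looked for.

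Ccl11, eotaxin, attracts eosinophils. Its level was 0.83, 0.41 and 0.05 in E2 24 h and -1.13, 0.97 and -0.60 in E3 24 h. Ccl11 was at -0.95, -1.49 and -0.25 in E2 2 h and -0.54, 0.02 and -0.29 in E3 2 h, against -1.04, -0.23 and -0.41 in vehicle. All 3 E2 24 h arrays lay above the vehicle and E2 2 h arrays, while E3 24 h spanned nearly the whole range. Ccl11 was higher at 24 h than at 2 h with E2 by 1.33 ± 0.47 (adjusted p = 0.031, limma), and 0.99 ± 0.47 above vehicle at 24 h without being called (adjusted p = 0.11, limma). Within scan day 1 the E2 time difference of Ccl11 was 1.11 (adjusted p = 0.059), and it was not called without E2 24 h replicate 1 (1.13), E2 24 h replicate 2 (1.34), E2 2 h replicate 1 (1.31) or E2 2 h replicate 2 (1.04). Without E3 24 h replicate 2, the high array of its group, Ccl11 was called in E2 24 h against vehicle (0.99, adjusted p = 0.027) and against E3 24 h (1.30, adjusted p = 0.03). Of 9 eosinophil markers 6 were tested. Of these 1, Alox15, was called higher in E2 24 h than in vehicle (0.95, adjusted p = 0.046, limma), beside 21.1% of all genes. The count of eosinophil markers called there was 0 to 2 over 27 alternatives and differed from 1 in 14 of them. Their summed level ran from 1.14 to 1.84 in E2 24 h, 0.842 to 1.70 in E3 24 h, 0.731 to 0.879 in E2 2 h, 0.841 to 1.56 in E3 2 h and 1.00 to 1.26 in vehicle; the eosinophil peroxidase gene Epx was well above background on 2 arrays. The part of these markers in the Ccl11 values was not tested.

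Ccl5 attracts T cells and NK cells. Its level was -1.52, -1.10 and 0.38 in E2 24 h and -0.25, 0.69 and 3.63 in E3 24 h. Ccl5 was at 0.73, -0.56 and -0.40 in E2 2 h and 0.02, -0.68 and -0.61 in E3 2 h, against 0.14, 1.13 and 1.46 in vehicle. It was called in no comparison; at 2 h with E3 all arrays lay below vehicle (-1.34, adjusted p = 0.22, limma). E3 24 h replicate 3 stood 2.94 above the next array of its group; on the other Ccl5 probe the same group ran from -2.16 to 1.75. Without that array Ccl5 was called lower in E2 24 h than in vehicle, by -1.66 (adjusted p = 0.025), a value that with all arrays had an adjusted p of 0.12. The 24 h difference between E2 and E3 was -2.10 (95% interval -3.90 to -0.31, adjusted p = 0.11, limma). Of 12 T and NK cell markers, all tested, 6 were called lower in E2 24 h than in vehicle (22.3% of all genes). In E3 24 h 0 were called (20.4% of all genes), and 5 were called lower in E2 24 h than in E3 24 h (6.77%). The count in E2 24 h was 3 within scan day 1, 1 without E2 24 h replicate 1 or 2, 2 without vehicle replicate 2 and 3 without vehicle replicate 3. The E2 24 h against E3 24 h count was 1 without E2 24 h replicate 1 or 2, 2 without E3 24 h replicate 2, and 3 without E3 24 h replicate 3, E2 2 h replicate 2, E3 2 h replicate 2 or vehicle replicate 3. Their summed level ran from 1.45 to 2.63 in E2 24 h, 2.65 to 5.75 in E3 24 h and 2.95 to 4.06 in vehicle; their part in the Ccl5 values was not tested. Over the 15 arrays the gene most like Ccl5 was Ccr7, a receptor of naive and memory T cells (Pearson r = 0.922). This value describes arrays that share treatment groups.

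The ELR chemokines were represented by Cxcl1, Cxcl2, Cxcl5 and Cxcl15, whose genes lie in a row on chromosome 5 in the order Cxcl5, Ppbp, Pf4, Cxcl3, Cxcl15, Cxcl1 and Cxcl2. Of the 10 members, 5 matched the RefSeq promoter table of GRCm38.p6: Cxcl1, Cxcl2, Cxcl12, Cxcl14 and Cxcl15. The 120 bases before the start of Cxcl1 (chr5:90891125-90891244), Cxcl2 (chr5:90903779-90903898) and Cxcl15 (chr5:90794414-90794533), all on the + strand, are shown because Cxcl1 rose at 2 h and Cxcl15, its neighbour, was not called then, while Cxcl2 was too dim to test. Capitals mark a match to the NF-kB consensus (Cxcl1, Cxcl2) or to TATAAA (Cxcl15); both strands were searched.
Cxcl1: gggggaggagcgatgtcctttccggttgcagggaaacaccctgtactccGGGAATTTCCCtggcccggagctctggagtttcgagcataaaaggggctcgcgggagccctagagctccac
Cxcl2: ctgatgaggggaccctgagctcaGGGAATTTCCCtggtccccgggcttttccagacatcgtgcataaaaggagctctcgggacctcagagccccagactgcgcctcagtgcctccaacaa
Cxcl15: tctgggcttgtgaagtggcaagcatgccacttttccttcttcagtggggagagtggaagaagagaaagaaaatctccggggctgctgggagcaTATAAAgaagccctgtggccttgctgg
The promoters of Cxcl1 and Cxcl2 hold the same NF-kB match, whose 2 strands overlap, beginning at position -71 in Cxcl1 and -97 in Cxcl2. Such a match was present in 4.51% of 32841 promoters of 300 bases. Cxcl15 holds TATAAA at -27, as do 13.6% of promoters somewhere in the window. The AP-1 motif TGANTCA, present in 7.81% of promoters, was in none of the 5, and GGTCA, the core of an oestrogen response element, was in 1 of them, Cxcl14, at -130 on the opposite strand, beside 40.5% of all promoters. A match describes the letters of the window and does not show a site in use.

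Cxcl1 is a neutrophil attractant. Its probe lies at chr5:90882059-90882118 on the + strand of mm7. The level of Cxcl1 was -4.51, -5.27 and -5.37 in E2 24 h and -4.96, -4.86 and -4.81 in E3 24 h. Cxcl1 was at -3.28, -2.12 and -1.89 in E2 2 h and -2.0, -1.22 and -1.21 in E3 2 h, against -3.90, -4.39 and -5.19 in vehicle. All 2 h arrays lay above all others, the groups of E2 2 h and E3 2 h overlapped, and the 24 h groups overlapped vehicle. Cxcl1 rose by 2.06 ± 0.40 in E2 2 h (adjusted p = 0.0014, limma) and by 3.01 ± 0.40, or 8.06-fold, in E3 2 h (adjusted p = 9.1e-05, limma). Within scan day 1 these changes in Cxcl1 were 2.49 and 3.28, and with slide as a random block 2.05 and 2.99, all called. Cxcl1 was lower at 24 h than at 2 h by a change of -2.62 ± 0.40 with E2 (adjusted p = 1.6e-04, limma) and -3.4 ± 0.40 with E3 (adjusted p = 3.3e-05, limma), and at 24 h its changes against vehicle were -0.56 and -0.38, not called. With slide as a fixed term the E3 time difference of Cxcl1 was -1.77 (adjusted p = 0.29), a shift of more than 1.5 times. On the slide shared by both E2 groups the Cxcl1 difference was -3.26.

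Of 11 neutrophil markers, 10 were tested. At 2 h 0 were called higher (15.5% of all genes with E2, 16.6% with E3) and 1 lower (23.1% and 23.6%) with either oestrogen. Their summed level ran from 5.68 to 13.4 in E2 2 h, 4.50 to 14.7 in E3 2 h and 10.7 to 29.9 in vehicle. Without Ltf, a gene that the uterine epithelium also expresses, it ran from 1.38 to 9.06 in E2 2 h, 2.25 to 9.08 in E3 2 h and 3.04 to 10.2 in vehicle. Cxcr2, the receptor of these chemokines, was well above background on 11 arrays. The part of these markers in the Cxcl1 values was not tested.

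Cxcl5 showed no difference that was called. Its level ran from -5.09 to -3.64 in E2 24 h, -5.95 to -3.80 in E3 24 h, -6.08 to -5.19 in E2 2 h, -5.60 to -4.52 in E3 2 h and -5.76 to -4.84 in vehicle, and the 95% interval of its change against vehicle was -0.30 to 2.04 in E2 24 h and -1.27 to 1.07 in E2 2 h. Cxcl2 ran from -8.96 to -6.05 over the 15 arrays and was well above background on 1 array of E2 24 h, 2 of E3 24 h, 1 of E2 2 h, 0 of E3 2 h and 2 of vehicle, so no change is given. Cxcl3, the nearest neighbour of Cxcl15 in the row on the other side from Cxcl1, changed by 1.36 ± 0.76 in E2 2 h and 1.37 ± 0.76 in E3 2 h, not called. Its vehicle arrays were at -8.70, -5.90 and -8.96, a range in which Cxcl2 was partly not well above background. Both probes are set side by side here only to judge nearness to background, since the flags of the Cxcl3 probe itself are not given. These changes therefore rest in part on signal near background.

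Cxcl15, an ELR chemokine first known from lung epithelium, was at -1.25, -1.61 and -2.08 in E2 24 h and -1.90, -1.17 and -1.52 in E3 24 h. Cxcl15 was at -0.97, -1.0 and -0.93 in E2 2 h and -1.57, -1.39 and -0.54 in E3 2 h, against -1.03, -1.01 and -1.0 in vehicle. The 3 vehicle arrays agreed within 0.03, and every 24 h array lay below them. Cxcl15 was lower at 24 h than at 2 h with E2 by a change of -0.68 ± 0.27 (adjusted p = 0.049, limma), just past the threshold; this call was lost in 19 of the alternatives, with values from -0.46 to -0.70. Against vehicle its change was -0.63 in E2 24 h (adjusted p = 0.076, limma) and -0.52 in E3 24 h (adjusted p = 0.19, limma), and on its other probe -0.82 in E2 24 h, which was called (adjusted p = 0.028, limma). Its probe spans 2674 bases of chromosome 5 in mm7, at chr5:90766592-90769265, so its 60 bases are not contiguous in the genome.
Cxcl15 probe: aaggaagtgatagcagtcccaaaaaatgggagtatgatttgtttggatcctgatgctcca

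Cxcl12, also called SDF-1, is a chemokine of stromal cells. Its brighter probe, at chr6:117207552-117207611, gave 3.46, 3.58 and 2.91 in E2 24 h and 3.63, 2.47 and 3.37 in E3 24 h. Cxcl12 was at 4.26, 4.16 and 4.11 in E2 2 h and 3.79, 4.53 and 4.04 in E3 2 h, against 3.98, 4.18 and 4.34 in vehicle. On this probe all 6 arrays of the 24 h groups lay below all arrays of the 2 h groups and of vehicle. Cxcl12 was called lower in E2 24 h, with a change of -0.85 ± 0.28 (adjusted p = 0.028, limma), and in E3 24 h, with -1.01 ± 0.28 (adjusted p = 0.028, limma). Its changes at 2 h were 0.01 (95% interval -0.60 to 0.62) with E2 and -0.05 (-0.66 to 0.56) with E3. The other probe, at chr6:117200799-117200858, gave -1.18 in E2 24 h (adjusted p = 0.0012, limma) and -0.67 in E3 24 h (adjusted p = 0.049, limma). On that probe E3 24 h replicate 1, at 2.65, lay above E3 2 h replicate 1, at 2.39. Between the times Cxcl12 was lower at 24 h by a change of -0.86 ± 0.28 with E2 (adjusted p = 0.022, limma) and -0.96 ± 0.28 with E3 (adjusted p = 0.014, limma). The E2 time call of Cxcl12 was lost without E2 24 h replicate 3 (-0.66), E2 2 h replicate 1 (-0.82) or E2 2 h replicate 2 (-0.87), and with slide as a fixed term (-0.55). The E3 time call was lost without E3 2 h replicate 2 (-0.75), with only those groups (-0.96), with slide as a fixed term (-2.16), and on the other probe, where the change was -0.50 (adjusted p = 0.076, limma).

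The calls of Cxcl12 against vehicle at 24 h rest on few arrays. In E2 24 h the call was lost without E2 24 h replicate 3 (-0.65), vehicle replicate 2 (-0.85) or vehicle replicate 3 (-0.76), and with the array median as the scale (-0.64, adjusted p = 0.07). In E3 24 h Cxcl12 was not called without E3 24 h replicate 2 (-0.67), without vehicle replicate 1 (-1.10), 2 (-1.0) or 3 (-0.92), with scan day as a term (-0.86, adjusted p = 0.079) or within scan day 1 (-0.67, adjusted p = 0.097). Within scan day 1 the E2 24 h change of Cxcl12 was -0.92 and was called. With slide as a random block the change was -0.84 in E2 24 h (adjusted p = 0.049) and -1.05 in E3 24 h (adjusted p = 0.05), at the threshold. Of 10 stroma markers, 5 were called higher and 3 lower in E2 24 h (21.1% and 22.3% of all genes). In E3 24 h 5 were called higher and 2 lower (9.7% and 10.7%). The summed levels of the markers, as multiples of the 75th percentile, were 699 to 777 in E2 24 h, 719 to 854 in E3 24 h and 407 to 457 in vehicle. Such a sum follows the brightest probes most. Col1a2 was at 7.81, 7.81 and 7.69 in E2 24 h and 5.65, 5.64 and 5.72 in vehicle. Hoxa10 was at 2.64, 2.75 and 2.44 in E2 24 h and 3.04, 3.03 and 3.03 in vehicle. With the array median as the scale the stroma counts were 5 higher and 0 lower in E2 24 h and 6 higher and 1 lower in E3 24 h, and with quantile normalization 2 higher and 2 lower in E3 24 h; their part in the Cxcl12 values was not tested.

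**Figure D3:**
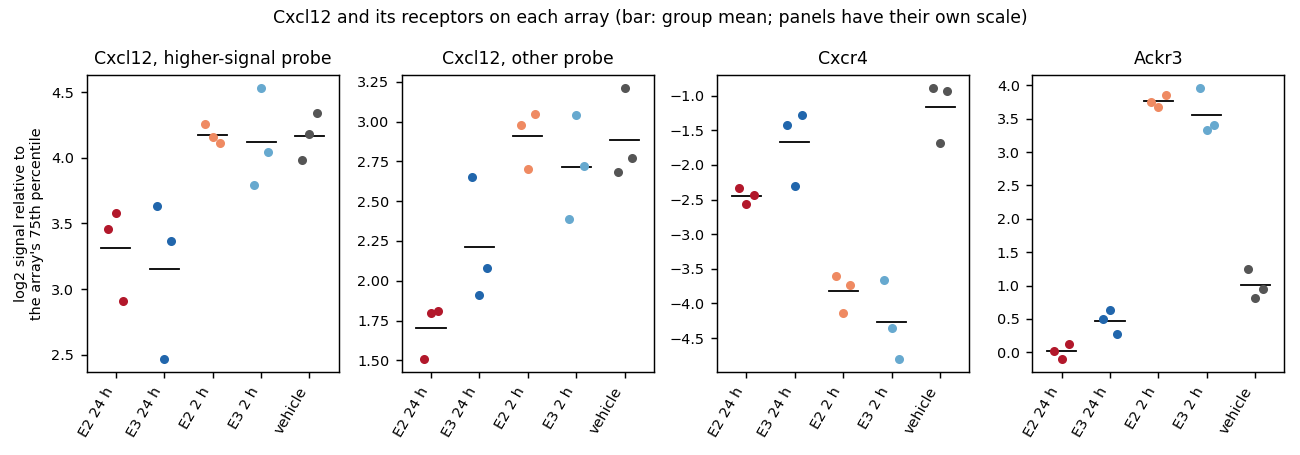
Level of both Cxcl12 probes and of its receptors Cxcr4 and Ackr3 on each array (log2 signal relative to the array's 75th percentile, own scale per panel); dots are arrays and bars are group means. At 2 h Cxcr4 is low and Ackr3 high while Cxcl12 overlaps vehicle; at 24 h Cxcl12 is low.

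The receptors of Cxcl12 moved at 2 h, when Cxcl12 itself was not called. Cxcr4, the signalling receptor, was at -3.60, -4.14 and -3.74 in E2 2 h, -3.66, -4.36 and -4.80 in E3 2 h and -0.89, -1.68 and -0.93 in vehicle. It fell by 2.66 on the log2 scale in E2 2 h (adjusted p = 5.4e-05, limma) and by 3.11 in E3 2 h (adjusted p = 1.7e-05, limma), and was still lower in E2 24 h, by -1.28 (adjusted p = 0.0074, limma); in E3 24 h its change was -0.50 (adjusted p = 0.29). Ackr3, the scavenging receptor, was at 3.75, 3.67 and 3.86 in E2 2 h, 3.96, 3.33 and 3.4 in E3 2 h and 1.25, 0.81 and 0.95 in vehicle. It rose by 2.75 in E2 2 h (adjusted p = 4.4e-07, limma) and 2.56 in E3 2 h (adjusted p = 6.7e-07, limma) and was lower than vehicle at 24 h, by -0.99 with E2 (adjusted p = 7.8e-04, limma) and -0.54 with E3 (adjusted p = 0.046, limma). Cxcr4, and Ackr3 at 2 h and in E2 24 h, kept these calls in 27 of 27 alternatives; the Ackr3 call in E3 24 h held in 8 of 27.

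Cxcl14, a CXC chemokine of epithelia and stroma whose receptor is less well settled, was at 3.26, 2.75 and 3.15 in E2 24 h and 2.81, 4.84 and 3.05 in E3 24 h. Cxcl14 was at 3.25, 3.36 and 3.16 in E2 2 h and 3.14, 2.77 and 3.26 in E3 2 h, against 2.76, 3.25 and 3.88 in vehicle. All groups overlapped vehicle, and E3 24 h replicate 2 stood apart from the other arrays. The 95% intervals of the change against vehicle were -1.19 to 0.71 in E2 24 h, -0.68 to 1.22 in E3 24 h, -0.98 to 0.91 in E2 2 h and -1.18 to 0.71 in E3 2 h.

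**Figure D4:**
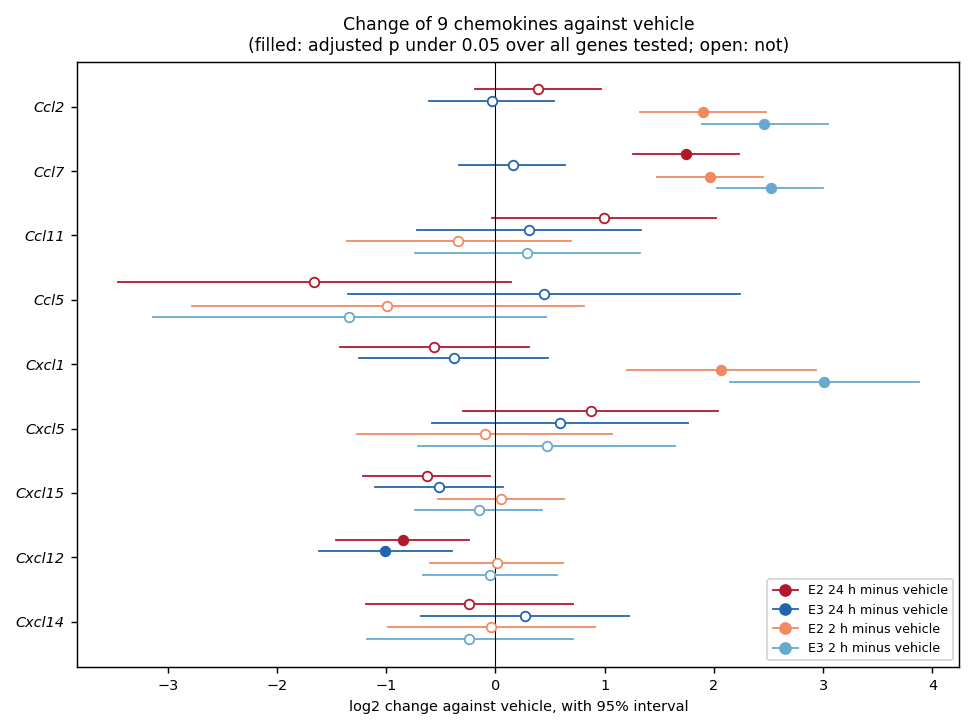
Log2 change of the 9 chemokines tested against vehicle, with 95% intervals, for the 4 treated groups; filled points were called at an adjusted p under 0.05 over all genes tested. The called values lie between 1.74 and 3.01 for Ccl2, Ccl7 and Cxcl1 and at -0.85 and -1.01 for Cxcl12.

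E2 and E3 were given at the same dose and compared at the same times, on different slides, and 9 members gave 18 such differences. The 1 called was Ccl7 at 24 h. At 2 h no gene of the 20308 was called between E2 and E3 (0%; 750 had an unadjusted p under 0.05 in limma, and the smallest adjusted p was 0.405). At that time the E2 minus E3 difference was -0.56 (95% interval -1.14 to 0.02) for Ccl2, -0.55 (-1.04 to -0.07) for Ccl7 and -0.95 (-1.82 to -0.09) for Cxcl1. The mean was lower with E2 for all 3 of the chemokines that rose. Ccl2 and Ccl7 did not overlap between the hormones, beside 12.7% of all genes, and Cxcl1 did. For Ccl7 the nearest arrays were at -0.88 in E2 2 h and -0.86 in E3 2 h, and on its second probe the groups overlapped, with a difference of -0.31 (95% interval -0.83 to 0.20). None passes adjustment, and the intervals do not show that the oestrogens act alike. At 24 h the intervals were -0.15 to 1.00 for Ccl2, -1.04 to 0.69 for Cxcl1 and -0.46 to 0.77 for Cxcl12.

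**Figure D5:**
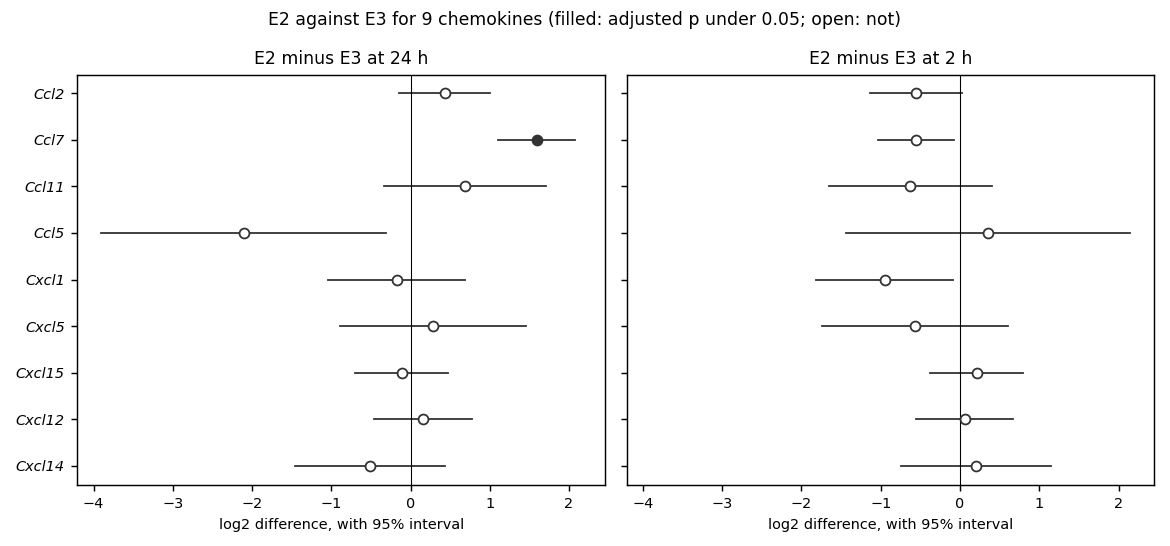
E2 minus E3 difference (log2) with its 95% interval for the 9 chemokines tested, at 24 h (left) and 2 h (right); filled points were called at an adjusted p under 0.05. Ccl7 at 24 h, at 1.59, is the 1 filled point, and at 2 h Ccl2, Ccl7 and Cxcl1 lie at -0.56, -0.55 and -0.95.

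Among the other genes of the pathway, 12 of 17 further CC chemokines passed the filter on dim probes, and 2 were called higher and 1 lower at 2 h with each oestrogen, 3 higher and 5 lower in E2 24 h, and 0 in E3 24 h. In E2 24 h the total of 8 became 5 without E2 24 h replicate 1, E2 24 h replicate 2 or vehicle replicate 2. Over all genes, 15.5% were called higher and 23.1% lower in E2 2 h, and 16.6% and 23.6% in E3 2 h. The shares were 21.1% and 22.3% in E2 24 h, and 9.7% and 10.7% in E3 24 h. The median change of the 12 CC chemokines was -0.33 in E2 24 h, 0.42 in E3 24 h, -0.09 in E2 2 h and -0.29 in E3 2 h. Ccl28, an epithelial chemokine of mucosal surfaces, rose by 2.37 in E2 24 h (adjusted p = 0.0097, limma). That change ran from 1.03 to 2.82 over 27 alternatives and was called in 27. Ccl28 was at -4.02, -5.15 and -4.08 in E2 24 h and -6.70, -7.17 and -6.48 in vehicle. In E3 24 h it was at -6.06, -3.31 and -6.39, so replicate 2 lay above every E2 24 h array. Ccl24, which attracts eosinophils through Ccr3 as Ccl11 does, fell by 2.28 on the log2 scale in E2 24 h (adjusted p = 0.002, limma) and was lower there than in E3 24 h (-2.05, adjusted p = 0.012, limma). Ccl3, a macrophage product, fell by 1.42 in E2 24 h (adjusted p = 0.012, limma). Ccl3 was not called there with normexp background (-0.62), within scan day 1 (-1.03) or without E2 24 h replicate 1 (-1.03).

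Of 11 other CXC, XC and CX3C chemokines, all tested, 4 were called lower and 0 higher at 2 h with each oestrogen, 3 lower in E2 24 h, and 0 in E3 24 h. Of all genes, 15.5% were called higher and 23.1% lower in E2 2 h, and 16.6% and 23.6% in E3 2 h. In E2 24 h these shares were 21.1% and 22.3%, and in E3 24 h they were 9.7% and 10.7%. With the array median as the scale the list gave 1 higher and 2 lower in E2 2 h and 2 lower in E3 2 h, where quantile normalization and normexp background also gave 2 lower. The median change of the 11 genes was -0.97 in E2 2 h and -1.04 in E3 2 h. Cxcl10, a T cell attractant that acts through Cxcr3, was at -2.35, -3.79 and -4.03 in E2 2 h, -2.88, -2.46 and -3.62 in E3 2 h and -0.31, -0.76 and -0.29 in vehicle. It fell by 2.94 in E2 2 h (adjusted p = 6.6e-04, limma) and by 2.53 in E3 2 h (adjusted p = 0.0018, limma). Cxcl1 and Cxcl10 therefore went in opposite directions at 2 h. Cxcl11, a ligand of the same receptor, was well above background on all 3 vehicle arrays, through which alone it entered the test, and on no array of E3 2 h. It was at least 4.95-fold lower there than in vehicle (adjusted p = 0.0033, limma), a bound set by the dimmest probes that were well above background.

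Of 19 chemokine receptors, 15 were tested. At 2 h, 2 were called lower with each oestrogen, beside 23.1% of all genes with E2 and 23.6% with E3. In E2 24 h 5 were called lower, beside 22.3% of all genes. The pair at 2 h was Cxcr4 and Ccrl2, a receptor-like protein that binds chemerin, which fell by 1.93 in E2 2 h (adjusted p = 1.4e-04, limma) and 1.90 in E3 2 h (adjusted p = 1.5e-04, limma). Ackr2, an atypical receptor that removes inflammatory CC chemokines, was at 1.47, 1.03 and -0.59 in E2 2 h, 0.55, 0.84 and 0.67 in E3 2 h and -0.86, -0.77 and -1.02 in vehicle, with E2 2 h replicate 3 the lowest of the 2 h arrays. It rose by 1.52 with E2 (adjusted p = 0.011, limma) and by 1.57 with E3 (adjusted p = 0.0087, limma), and within scan day 1 the E2 change of Ackr2 was 1.1 (adjusted p = 0.054). Cxcr3 fell by 1.38 in E2 24 h (adjusted p = 0.0063, limma).

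Of 18 inflammatory cytokine and NF-kB feedback genes, 17 were tested. At 2 h, 8 were called higher and 1 lower with E2, beside 15.5% and 23.1% of all genes. With E3, 9 were called higher and 3 lower at 2 h, beside 16.6% and 23.6%. At 24 h the counts were 1 higher and 3 lower with E2, beside 21.1% and 22.3% of all genes. With quantile normalization 6 were called lower there. In E3 24 h 0 were called, beside 20.4% of all genes. Cebpb, a transcription factor of inflammatory genes, rose by 3.39 with each oestrogen at 2 h, Il6 by 2.44 with E2 and 3.29 with E3, and Zfp36, which promotes the decay of cytokine mRNAs, by 2.32 with E2 and 2.58 with E3. Il6 was well above background on 1 of 3 vehicle arrays, so its fitted changes rest in part on signal near background. Il1rn was called lower in E3 2 h, a call lost in 6 alternatives. It was at -6.45, -4.77 and -6.29 there and at -3.10, -3.44 and -4.30 in vehicle. Of 7 endothelial genes of leukocyte entry, 6 were tested. In E2 2 h 2 were called higher and 0 lower, beside 15.5% and 23.1% of all genes. In E3 2 h 3 were called higher and 1 lower, beside 16.6% and 23.6%. With the array median as the scale, 4 were called higher and 0 lower with each oestrogen. Sele, E-selectin, was not well above background on any vehicle or 24 h array, so that it entered the test through the 2 h groups alone. It was at least 9.03-fold higher in E2 2 h and at least 5.56-fold higher in E3 2 h (adjusted p = 1.3e-04 with E2 and 5.2e-04 with E3, limma). Icam1, a ligand of leukocyte integrins, rose by 1.32 in E2 2 h and 1.34 in E3 2 h. Vcam1 of the same list was called lower in E3 2 h, a call lost in 9 alternatives. It was at -0.86, -1.49 and -2.32 there and at -0.55, -0.45 and -0.87 in vehicle.

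Over the 15 arrays, the level of Ccl2 followed that of Cxcl1 (Pearson r = 0.92) and of Ccl7 (r = 0.87), and Ccl7 followed Cxcl1 less closely (r = 0.69). The genes most like Ccl2 by the same measure were St3gal5 (0.973), Plaur (0.973) and Fam78b (0.967). Those most like Cxcl1 were Ankrd13c (0.978), Rad17 (0.976) and Sowahc (0.976). Those most like Ccl7 were Tpm4 (0.967), Ttc19 (0.953) and Higd1a (0.95), and those most like Cxcl12 were Zfp462 (0.97), Hcfc2 (0.925) and Gprasp1 (0.921). These are descriptions over arrays that share treatment groups and scaling. For Cxcl5 the closest gene reached 0.763, the lowest such value among the 9 members.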

How the data were processed

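The 15 one-colour arrays, labelled with Cy3 from total RNA, were read from the deposited scanner files. Per the file headers, the deposited processed signal is an intensity on a linear scale from Agilent Feature Extraction 9.5.3.1 (9.5 in the submitters' processing notes), not normalized between arrays; the deposited series value table was equal to it. Per the file headers, probe positions are in mm7.

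Log2 signals were averaged over the spots of a probe, without controls and flagged outliers, and reduced by each array's 75th percentile over non-control spots. Where several probes shared a gene, the one brightest on average stood for it, and it entered the test when well above background throughout some group (3 of 3 arrays). A limma 3.58.1 model (R 4.3.3) with 1 mean per group used all 15 arrays, and p-values were adjusted by Benjamini and Hochberg over 20308 genes per comparison. The procedure was tested on simulated data. Where a group lay wholly below background, a fold is a bound.

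Members and gene lists were chosen with earlier results of these data known. Named genes are the members, up to 6 called genes of each list with the largest change against vehicle, and the 3 genes most like each member. A list is described by counts; genes that a rule gives but on which no result turns are not named. Promoters are from RefSeq (GRCm38.p6). Alternatives were other scalings, background corrections, filters, probes, variance models, blocks for replicate, slide and scan day, and leaving out each array; within-slide values, the neutrophil list without Ltf, and alternatives for list genes were added after seeing the data. The receptor list in E3 24 h is not reported here.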

Additional observations from a re-analysis of the deposited data

Results flagged for a closer look

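Differences between groups of treated arrays were called for 6 members. The background was of the same size: 52.3% of all genes were called between the times with E2, beside 5 of 9 members, and 49.7% with E3, beside 4 of 9. The time difference in E2 (24 h minus 2 h) was called for Ccl2 (-1.51), Cxcl1 (-2.62), Cxcl12 (-0.86), Cxcl15 (-0.68) and Ccl11 (1.33), and the time difference in E3 for Ccl2 (-2.5), Cxcl1 (-3.4), Ccl7 (-2.36) and Cxcl12 (-0.96). Ccl7 was higher in E2 24 h than in E3 24 h (1.59), and the change of that difference between the times was called (2.14). This last call of Ccl7 was lost with scan day as a term (1.76, adjusted p = 0.056, limma), within scan day 1 (1.76, adjusted p = 0.058) and with slide as a fixed term (2.16, adjusted p = 0.41). The same quantity was 0.99 (adjusted p = 0.14, limma) for Ccl2 and 0.78 (adjusted p = 0.44, limma) for Cxcl1, neither called, and it was called for Ccl11 without E3 24 h replicate 2 (1.93, adjusted p = 0.032, limma). Differences between members were not tested.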

How the results depend on the processing

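Over 81 results for single members and 32 alternatives, 2268 values were recomputed: 2204 kept direction and call status or stayed uncalled, 51 lost a call, 13 gained one and 0 reversed a called direction; in 84, an uncalled change took the other sign. The increases of Ccl2, Ccl7 and Cxcl1 at 2 h and of Ccl7 in E2 24 h were called in every alternative run. The number of members called between E2 24 h and E2 2 h was 2 with slide as a fixed term, between E2 24 h and E3 24 h 0, between E3 24 h and E3 2 h 0, and in the difference of differences 0, where it was also 0 with scan day as a term and within scan day 1. It was 1 in E2 24 h against vehicle with the array median as the scale, and 0 in E3 24 h against vehicle with scan day as a term, within scan day 1, or with only the groups compared. Leaving out each array gave 2 to 5 members for E2 24 h minus E2 2 h, 1 to 2 for E2 24 h minus E3 24 h, 1 to 3 for E2 24 h minus vehicle, 3 to 5 for E3 24 h minus E3 2 h, 0 to 1 for E3 24 h minus vehicle, 1 to 2 for the difference of differences, 3 to 3 for each oestrogen at 2 h against vehicle and 0 to 0 for E2 2 h minus E3 2 h. Ccl5 was called without E3 24 h replicate 1 in E2 24 h minus E3 24 h (-2.91) and in E3 24 h minus E3 2 h (2.59).

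Over all genes, the E3 24 h against vehicle count of 4135 became 2690 without the filter on dim probes, 2476 with slide as a random block, 2360 with scan day as a term, 2299 within scan day 1, 1 with only the groups compared, and 1430 to 5304 leaving out arrays. The difference of differences, 1263, became 574, 701, 189, 610 and 687 under the same settings, 0 with slide as a fixed term, and 432 to 2215 leaving out arrays. E2 24 h minus E3 24 h, 3193, became 0 with slide as a fixed term, 362 with only the groups compared, and 1829 to 4054 leaving out arrays, and E3 24 h minus E3 2 h, 10095, became 134 with slide as a fixed term. E2 2 h minus E3 2 h, 0, became 1 with only the groups compared, and 0 to 1 leaving out arrays. With the array median as the scale, the genes called higher and lower in E2 24 h against vehicle were 6191 and 3024 (4279 and 4535 at the 75th percentile), in E3 24 h 3010 and 1315 (1970 and 2165), in E2 24 h minus E3 24 h 2031 and 970 (1818 and 1375), and in the difference of differences 1084 and 330 (781 and 482). With normexp background the E3 24 h split was 1777 and 1295. The array median scale moved the median change of all genes against vehicle to 0.04 in E2 2 h, 0.08 in E3 2 h, 0.2 in E2 24 h and 0.14 in E3 24 h, beside -0.14, -0.16, -0.02 and 0 at the 75th percentile. Ccl27a, called lower in E2 24 h than in E3 24 h, had a change of 0.44 with slide as a fixed term. The cause was not tested for any of these.

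The replicate block changed 1 call among the members: Cxcl15 in E2 24 h minus E2 2 h, at -0.68 with an adjusted p of 0.071 (limma), which left 4 members called there. The deviations of same-numbered samples had a median correlation of -0.02 (30 pairs, 7 over 0.1). For samples with different numbers it was 0.02 (60 pairs, 11 over 0.1). These values show no sign of pairing by number, but so few arrays per group cannot decide whether the numbers pair the samples.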
